A study of Mus musculus with 8 samples.

Results

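The genes described are the glycosyltransferases and carbohydrate sulfotransferases of mouse macrophages, the Golgi enzymes that build glycans sugar by sugar and add sulfate to them. Members were the genes whose symbol in the probe table began with St3gal, St6gal, St8sia, Galnt, Gcnt, B3gnt, B3gal, B4gal, Mgat, Fut, Chst, Chsy, Hs2st, Hs3st, Hs6st, Ndst, Ext1, Ext2 or Extl. Probes were kept when their detection p was under 0.05 on at least 2 of 8 arrays. Of 121 such genes with 237 probes, 67 genes with 114 probes were kept, out of 10068 named genes and 18503 probes kept on an array of 45281. The rule names only symbols and detection, but it was chosen with earlier results of these data known. Shares of members set beside all features below are therefore descriptions. A gene above background in 1 group alone could also enter.

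The cells were macrophages grown from C57BL/6 bone marrow for 7 days with the growth factor M-CSF. There were 4 groups of 2 arrays each. They were untreated macrophages, macrophages given 1 µM all-trans retinoic acid (ATRA, the vitamin A metabolite that activates retinoic acid receptors), macrophages given culture supernatant of omentum (OMsup, from a fatty tissue of the abdominal cavity), and macrophages given both (ATRA+OMsup). Stimulation lasted 24 h in serum-free macrophage medium. It is not stated whether the untreated cells were kept in that medium, how the supernatant was prepared, or whether replicates were separate cultures. Each p-value therefore reflects the spread between these 8 samples alone, and that spread may be technical.

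Mucin-type O-glycans start when a polypeptide GalNAc-transferase places a sugar on serine or threonine, and are then branched and extended. N-glycans are branched by the Mgat enzymes, and both kinds of chain, like glycolipids, are finished with sialic acid and fucose. Chondroitin and heparan sulfate are long chains on proteoglycan cores, whose sulfate groups help to set which growth factors and chemokines they bind. In macrophages these glycans take part in adhesion, in signalling at the cell surface and in recognition by lectins.

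On each array 16116 to 16784 probes exceeded background, and replicate arrays correlated across probes at 0.9905 to 0.9939. Of 8 macrophage marker genes, 7 had a probe, and all of those were above background on every array. No mesothelial (5), adipocyte (4) or mast cell (3) marker probe was above background on any array. Of 2 B cell markers with a probe, Cd79b was above background on every array (mean log2 level 5.91 to 6.29) and Ms4a1 on none. The fibroblast markers Dcn and Pdgfra were above background on some arrays, as were the dendritic markers Flt3 and Zbtb46. So were the T and NK cell markers Nkg7 and Klrb1c. Col1a1, Col1a2, Col3a1, Lum, Cd3e, Cd3g and Xcr1 were above background on none. The 6 granulocyte markers were all above background in untreated cells, and their levels moved in different directions. The mean log2 level of Prtn3 was 5.26 in untreated cells, 6.80 with OMsup and 10.22 with both, while that of Ltf was 6.35, 5.26 and 5.04 and that of Camp 5.17, 4.42 and 4.54, with Camp not above background on either OMsup array. The summed level of the 6 on the linear scale, carried by Prtn3 with both agents, was 364 to 469 in untreated cells, 296 to 323 with ATRA, 594 to 680 with OMsup and 1620 to 1660 with both. The summed level of 4 megakaryocyte markers, carried by Pf4 and Ppbp, was 215 to 271, 406 to 477, 1510 to 2100 and 9020 to 10900 in the same order. The other markers stayed low, with mean log2 levels of 4.31 to 4.53 for Itga2b and 4.53 to 4.68 for Gp9 over the 4 groups. Neither was above background on both arrays of any group. The part of such cells in the results below, above all those with OMsup and with both agents, was not tested. In RNA from whole cultures, fewer cells of a type and less RNA per cell cannot be told apart.

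The glycan genes changed in all 3 treatments. With ATRA, 11 of 67 members (16.4%) passed, that is, had an adjusted p under 0.05 in limma. Among all 12793 genes and unnamed probes tested, the features, 4.06% passed. Of the 11 members, 8 were higher and 3 lower, where 2.35% and 1.72% of all features were. Among the 8, Hs3st3b1 was above background only on arrays with ATRA. With OMsup 13 members (19.4%) passed beside 9.36% of all features, 6 higher and 7 lower beside 4.68% and 4.67%. Among the 7, St3gal6 was above background only on arrays without OMsup. With both agents 19 members (28.4%) passed beside 15.1% of all, 11 higher and 8 lower beside 7.88% and 7.26%. Hs3st3b1 and St3gal6 were among these 19. These 3 comparisons share the untreated arrays. Changes are given as differences of mean log2 intensity between groups of n = 2 arrays, and SE is their standard error in limma.

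The comparisons between treated groups gave smaller counts. Adding OMsup to ATRA changed 9 members (13.4%), near the 10.4% of all features, 4 higher and 5 lower beside 4.98% and 5.42%. The 5 include St3gal6 and Hs3st1, which were above background only on arrays without OMsup. Adding ATRA to OMsup also changed 9 members (13.4%), where 4.49% of all features passed, 6 higher and 3 lower beside 2.73% and 1.77%. Hs3st3b1 was among the 6. The interaction, which is the ATRA change in the presence of OMsup minus the ATRA change without it, was passed by 1 member (1.49%) beside 0.242% of all, and this member was higher (0.164% of all features were higher and 0.0782% lower). In total 25 members passed in at least 1 of the 6 comparisons and 42 in none. The family counts below pool the 6 comparisons in the same way. A matching share over all features is not given here, so these pooled counts cannot be set against the shares above. The median change of the 67 members was close to 0 in every comparison against untreated cells (-0.02, 0.04 and -0.01 with ATRA, OMsup and both), as it was over all features (0.01, -0.00 and -0.01), while the median absolute change was 0.23, 0.21 and 0.27, against 0.15, 0.18 and 0.21 over all features.

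**Figure D1:**
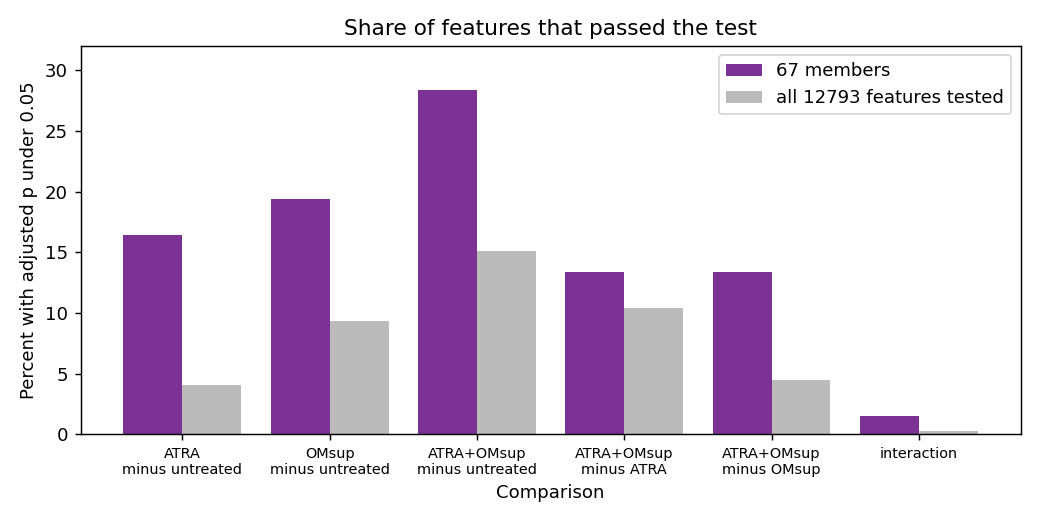
Percent of features with an adjusted p under 0.05 (vertical axis) in each of the 6 comparisons (horizontal axis), for the 67 members (purple bars) and for all 12793 features tested (grey bars). The member bar is the higher one in each comparison, 28.4% against 15.1% with both agents, and the bars lie closest, relative to their height, when OMsup was added to ATRA (13.4% against 10.4%).

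The results turn most on St3gal5, Chst15 and Gcnt2. St3gal5 encodes GM3 synthase, which starts the ganglioside glycolipids, and was the member that passed in the interaction. Chst15, which adds a second sulfate to the GalNAc of chondroitin sulfate, had the largest called change with ATRA. Gcnt2, which makes the branches of the I blood group antigen, had the largest with OMsup. Their promoters are shown as context for the changes below. Each is 300 bases, from 250 before to 50 after the start of transcription, read from RefSeq on GRCm38.p6 in the direction of the gene. The St3gal5 promoter lies at chr6:72097358-72097657 on the plus strand, the first of 2 Chst15 promoters at chr7:132317179-132317478 on the minus strand, and the second of 3 Gcnt2 promoters at chr13:40886508-40886807 on the plus strand.
St3gal5: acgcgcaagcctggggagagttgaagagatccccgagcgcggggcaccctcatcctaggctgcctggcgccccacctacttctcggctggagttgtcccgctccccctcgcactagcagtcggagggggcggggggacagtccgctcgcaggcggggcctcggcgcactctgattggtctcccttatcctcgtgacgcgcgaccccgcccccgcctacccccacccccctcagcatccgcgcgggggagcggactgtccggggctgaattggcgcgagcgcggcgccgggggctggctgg
Chst15: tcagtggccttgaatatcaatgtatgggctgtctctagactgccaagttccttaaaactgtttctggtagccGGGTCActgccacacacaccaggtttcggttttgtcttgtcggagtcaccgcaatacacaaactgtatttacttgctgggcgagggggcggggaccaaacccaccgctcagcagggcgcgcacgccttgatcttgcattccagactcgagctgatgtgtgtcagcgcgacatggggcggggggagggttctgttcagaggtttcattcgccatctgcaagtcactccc
Gcnt2: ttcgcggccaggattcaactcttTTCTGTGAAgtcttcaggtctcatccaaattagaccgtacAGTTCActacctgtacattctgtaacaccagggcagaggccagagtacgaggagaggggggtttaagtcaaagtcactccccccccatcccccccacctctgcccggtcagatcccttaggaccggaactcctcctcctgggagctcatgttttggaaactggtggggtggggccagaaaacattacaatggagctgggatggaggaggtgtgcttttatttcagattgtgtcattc
The nuclear receptor words searched were AGGTCA, its form with T as the third base (AGTTCA), its form with G as the first base (GGGTCA) and the form with both changes (GGTTCA). Capitals mark matches, on either strand, to one of these words, to the STAT word TTCNNNGAA, or to the hypoxia response core ACGTG. No base lay in matches to more than 1 of these motifs. The Chst15 promoter holds 1 nuclear receptor word, GGGTCA, and the Gcnt2 promoter holds 1 such word, AGTTCA, and 1 STAT word. The other Chst15 promoter, which is not printed, holds none of the motifs. Of the other Gcnt2 promoters, neither holds a nuclear receptor or STAT word, and the first holds 1 hypoxia core. The St3gal5 window, with 72.7% G and C, has none of these letters. Such matches are common. Promoters on 1 chromosome were left out of the search. Of the 32851 promoters searched, 43.7% hold a nuclear receptor word, 8.3% the STAT word and 19.6% the hypoxia core. Among the promoters of the 8 members higher with ATRA, 5 of 11 (45.5%) hold a nuclear receptor word. Among those of the members higher with OMsup, 1 of 8 (12.5%) holds the STAT word. Among the promoters searched, 53 of 67 members had a promoter. The set of 4 nuclear receptor words was chosen after AGGTCA alone had been searched (16.3% of the promoters searched) and the sequences had been seen.

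Sialyltransferases, which cap chains with sialic acid, had 11 kept members of 20, and 5 of them changed. St3gal5 showed the widest range. Its log2 intensity was 8.93 and 9.12 on the untreated arrays, 10.08 and 9.99 with ATRA, 6.39 and 6.72 with OMsup, and 9.69 and 9.51 with both. The OMsup arrays lay below all others, and no group overlapped another. St3gal5 rose by 1.01 with ATRA (log2 scale, SE 0.159, adjusted p = 0.00453) and fell by 2.47 with OMsup (SE 0.159, adjusted p = 4.87e-06). In cells with OMsup, ATRA raised it by 3.04 (adjusted p = 6.95e-06), to 0.58 above untreated cells (adjusted p = 0.0323). The ATRA change was therefore larger with OMsup than without by 2.03 (SE 0.225, 95% interval 1.53 to 2.53, adjusted p = 0.00306). A further St3gal5 probe gave 0.91, -2.02 and 2.70 for ATRA, OMsup and ATRA added to OMsup, and 1.79 for the interaction (adjusted p = 0.0246). Leaving out untreated array 1 (0.92, adjusted p = 0.0599) or ATRA array 1 (0.97, adjusted p = 0.0574) ended the call with ATRA alone. The call with both agents ended without any 1 of the untreated, ATRA or ATRA+OMsup arrays (0.48 to 0.67, adjusted p = 0.0509 to 0.181), with a common median for all arrays (0.53, adjusted p = 0.068) and without the detection filter (adjusted p = 0.0565).

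St3gal6, which sialylates chains that serve as selectin ligands, fell with OMsup. It read 5.89 and 5.94 in untreated cells, 6.01 and 6.48 with ATRA, 4.21 and 4.44 with OMsup, and 4.22 and 4.26 with both. All 4 arrays with OMsup were not above background, and all 4 without were, so St3gal6 was kept only through the groups where it is high. A fold against such a group is a bound, computed from the mean of the brighter group and, for each dim array, the higher of its lowest detected signal and the probe's own value. St3gal6 was at least 2.47-fold lower with OMsup than in untreated cells (adjusted p = 0.000293), at least 2.5-fold lower with both (adjusted p = 0.000113), and at least 3.14-fold lower with both than with ATRA (adjusted p = 5.84e-05).

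By the brightest probe of each gene, St6gal1 and St6galnac4 rose with ATRA in the presence or absence of OMsup. St6gal1, which puts sialic acid on the galactose ends of N-glycans, read 11.32 and 11.31 in untreated cells, 12.17 and 12.24 with ATRA, 11.31 and 11.52 with OMsup, and 12.37 and 12.60 with both. Both ATRA groups lay above both groups without ATRA. The rise was 0.89 without OMsup (SE 0.121, adjusted p = 0.00204) and 1.07 with it (adjusted p = 0.000462), and 1.17 for both agents against untreated (adjusted p = 7.93e-05). With OMsup alone the difference was 0.10 (95% interval -0.17 to 0.37). A second St6gal1 probe did not pass with ATRA (0.82, adjusted p = 0.245) or when ATRA was added to OMsup (0.53, adjusted p = 0.551). Nor did it pass with both against untreated (0.44, adjusted p = 0.419). The mean of the St6gal1 probes gave 0.85 with ATRA (adjusted p = 0.0502) and, with OMsup present, 0.80 (adjusted p = 0.0616). For both against untreated the mean gave 0.80 and passed (adjusted p = 0.025).

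St6galnac4, which adds a second sialic acid to short O-glycans, read 7.10 and 7.10, 7.87 and 7.76, 7.15 and 7.30, and 8.16 and 8.17 in untreated, ATRA, OMsup and ATRA+OMsup cells. The ATRA groups were again above the others without overlap. It rose by 0.72 with ATRA (SE 0.149, adjusted p = 0.0208), by 0.94 when ATRA was added to OMsup (adjusted p = 0.00374) and by 1.07 with both against untreated (adjusted p = 0.000578). Its 3 other probes gave 0.12 to 0.39 with ATRA and 0.17 to 0.41 with both against untreated, and none passed. When ATRA was added to OMsup they gave 0.14 to 0.87, and only the highest passed (adjusted p = 0.0285). The mean of its probes was 0.37 (adjusted p = 0.206) with ATRA and 0.51 (adjusted p = 0.03) with both. Leaving out any of the 4 arrays ended the call with ATRA (adjusted p = 0.114 to 0.2). St3gal1, which caps core 1 O-glycans, fell by 1.05 with both agents (SE 0.215, adjusted p = 0.00685). It did not pass without the second untreated array (-0.95, adjusted p = 0.0663). St3gal2, St3gal3, St3gal4, St6galnac2, St6galnac6 and St8sia4, the last a polysialic acid synthase, passed nowhere. By their brightest probes the changes were -0.50 to 0.32 in the 5 comparisons of groups. A second St8sia4 probe gave 0.40 with OMsup and 0.81 with both and did not pass (adjusted p = 0.475 and 0.0687). The brightest gave -0.28 and -0.00 there. St6galnac6 neighbours St6galnac4 on chromosome 2.

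**Figure D2:**
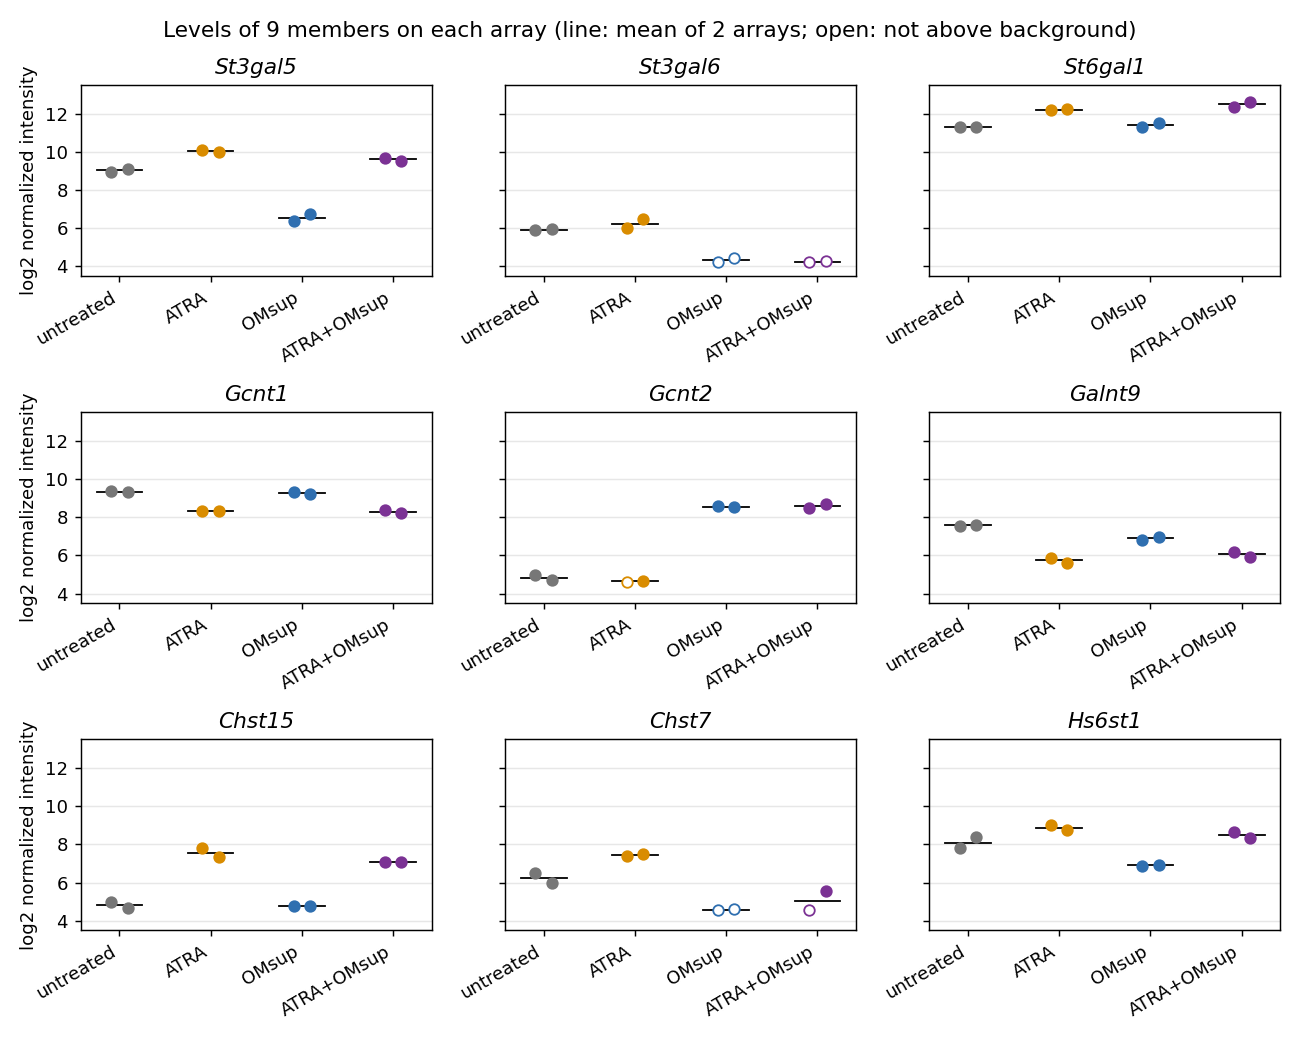
Log2 normalized intensity (vertical axis) of 9 members on each of 8 arrays, by group. Points are arrays, open where the probe was not above background, and lines are means of 2 arrays. St3gal5 is lowest with OMsup alone (6.39 and 6.72), Gcnt2 stands near 8.5 on the 4 arrays with OMsup (8.47 to 8.68), and Chst15 is high on the 4 arrays with ATRA (7.06 to 7.79).

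Both kept branching genes of the Gcnt family, 2 of 4, changed, Gcnt1 with ATRA and Gcnt2 with OMsup. Gcnt1 makes the core 2 branch that carries selectin ligands on leukocytes. It read 9.35 and 9.32 in untreated cells, 8.30 and 8.34 with ATRA, 9.33 and 9.20 with OMsup, and 8.36 and 8.20 with both. Both ATRA groups were below both groups without it. Gcnt1 fell with ATRA (log2 change -1.02, SE 0.136, adjusted p = 0.00184), when ATRA was added to OMsup (-0.98, adjusted p = 0.00175) and with both (-1.05, adjusted p = 0.000351). A second probe gave -0.93, -1.23 and -1.28 in the same order, and each passed. With OMsup alone Gcnt1 differed by -0.07 (95% interval -0.37 to 0.23), and its interaction was 0.03 (95% interval -0.40 to 0.46).

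Gcnt2, the I-antigen branching enzyme, read 4.96 and 4.69 in untreated cells, 4.63 and 4.66 with ATRA, 8.57 and 8.51 with OMsup, and 8.47 and 8.68 with both, and the probe was above background on 7 of 8 arrays. The 4 arrays with OMsup stood far above the 4 without. Of 5 Gcnt2 probes on the array, this was the only one kept, and which of its transcripts the probe reads was not tested. Gcnt2 rose by 3.71 with OMsup (SE 0.17, adjusted p = 6.7e-07), by 3.75 with both (adjusted p = 3.01e-07) and by 3.93 when OMsup was added to ATRA (adjusted p = 4.18e-07). ATRA made a difference of -0.18 without OMsup (95% interval -0.56 to 0.20) and 0.04 with it (95% interval -0.34 to 0.42). Gcnt3 and Gcnt7 were not kept.

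The polypeptide GalNAc-transferases, which start O-glycans, had 7 kept members of 19. Galnt9 read 7.55 and 7.59 in untreated cells, 5.87 and 5.60 with ATRA, 6.80 and 6.97 with OMsup, and 6.19 and 5.90 with both. Untreated arrays were the highest and arrays with ATRA the lowest. Galnt9 fell with ATRA (log2 change -1.84, SE 0.18, adjusted p = 0.000215), with OMsup (-0.69, adjusted p = 0.0365), with both (-1.52, adjusted p = 0.00018) and when ATRA was added to OMsup (-0.84, adjusted p = 0.0237). The call with OMsup alone ended without any 1 of the untreated, ATRA or OMsup arrays (-0.60 to -0.78, adjusted p = 0.0526 to 0.185) and without the detection filter (adjusted p = 0.0554). A second, dimmer Galnt9 probe passed only with both agents (-0.54). The mean of the probes gave -1.14 with ATRA (adjusted p = 0.00157) and gave -0.49 when ATRA was added to OMsup (adjusted p = 0.0932), a call that also ended without either OMsup array or the second ATRA+OMsup array (adjusted p = 0.0766 to 0.157).

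Galnt2 went the other way. Its arrays read 10.15 and 10.32 in untreated cells, 10.69 and 10.87 with ATRA, 10.65 and 10.96 with OMsup, and 11.07 and 11.29 with both. Every treated array lay above the untreated ones by this probe. The rise passed with OMsup (0.56, SE 0.146, adjusted p = 0.0353) and with both (0.94, adjusted p = 0.00124), while ATRA alone gave 0.54 (adjusted p = 0.0755). With OMsup the call ended without either untreated array, either ATRA array or the second OMsup array (0.41 to 0.65, adjusted p = 0.0553 to 0.265). It also ended with a common median (0.48, adjusted p = 0.14), with the mean of the probes (0.41, adjusted p = 0.123), without the detection filter (adjusted p = 0.0531) and without the trend in the variance (adjusted p = 0.0663). Galnt1, Galnt10, Galnt11, Galnt12 and Galnt15 passed nowhere (-0.46 to 0.42 by their brightest probes), and 12 genes of the family were not kept.

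Of the N-glycan branching enzymes, 5 of 11 were kept, and the pair that makes the same branch moved apart. Mgat4a and Mgat4b both add a GlcNAc branch to the alpha-mannose arm of N-glycans. Mgat4a read 8.25 and 8.10 in untreated cells, 8.08 and 7.86 with ATRA, 9.0 and 8.76 with OMsup, and 9.51 and 9.19 with both, so that both OMsup groups were above both others. It rose by 0.70 with OMsup (SE 0.167, adjusted p = 0.022), by 1.17 with both (adjusted p = 0.000652) and by 1.38 when OMsup was added to ATRA (adjusted p = 0.000358). The first of these calls ended without either untreated array or the first OMsup array (adjusted p = 0.0713 to 0.161) and when all arrays were brought to one median (0.58, adjusted p = 0.0828).

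Mgat4b read 9.48 and 9.75 in untreated cells, 9.39 and 9.10 with ATRA, 9.12 and 8.62 with OMsup, and 8.88 and 8.61 with both. Both OMsup groups lay below the untreated arrays. It fell with OMsup (-0.75, SE 0.195, adjusted p = 0.036) and with both (-0.87, adjusted p = 0.0112). Its call with OMsup was likewise lost without untreated array 1 (adjusted p = 0.0719). Leaving out the second untreated array ended both calls (adjusted p = 0.257 and 0.112), as did leaving out the second OMsup array for the first (adjusted p = 0.271) and the second ATRA+OMsup array for the other (adjusted p = 0.0719). A second Mgat4b probe passed with both agents (-1.11, adjusted p = 0.0131) but not with OMsup (-0.85, adjusted p = 0.071). Mgat1, which opens the way to complex N-glycans, Mgat5, which makes the branch bound by galectins, and Mgat4e passed nowhere (-0.28 to 0.33 by their brightest probes).

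The enzymes that lengthen chains with GlcNAc, the B3gnt family, had 6 kept members of 8. B3gnt5, the synthase of lacto-series glycolipids, read 5.59 and 5.71 in untreated cells, 4.94 and 4.86 with ATRA, 5.61 and 5.60 with OMsup, and 4.50 and 4.61 with both. Arrays with ATRA were lower than those without in each case. It fell with ATRA (-0.75, SE 0.15, adjusted p = 0.0169), when ATRA was added to OMsup (-1.05, adjusted p = 0.00207) and with both (-1.10, adjusted p = 0.000516). The call with ATRA alone ended when any 1 of its 4 arrays was left out (-0.69 to -0.81, adjusted p = 0.0705 to 0.148).

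B3gnt9 read 7.95 and 8.08 in untreated cells, 8.30 and 8.47 with ATRA, 8.35 and 9.14 with OMsup, and 8.86 and 9.42 with both. The untreated arrays were the lowest, and the pairs with OMsup were widely spread. It passed with both agents (1.13, SE 0.252, adjusted p = 0.0111), but not as the mean of its probes (0.42, adjusted p = 0.0717) or without either untreated array or the second ATRA+OMsup array (adjusted p = 0.0556 to 0.0843). B3gnt3, B3gnt7, B3gnt8 and B3gntl1 passed nowhere by their brightest probes (-0.54 to 0.44). A second B3gnt8 probe did pass with both agents (-0.82, adjusted p = 0.0372), where the brightest gave -0.33.

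Galactosyl- and GalNAc-transferases were the largest family kept, 14 of 18, and 1 of them changed. B3galnt1, globoside synthase, read 8.28 and 8.40 in untreated cells, 8.54 and 8.79 with ATRA, 7.63 and 7.99 with OMsup, and 8.02 and 7.97 with both. ATRA arrays were the highest. It fell when OMsup was added to ATRA (-0.67, SE 0.168, adjusted p = 0.0266), which did not hold without any 1 of the 4 arrays (-0.55 to -0.80, adjusted p = 0.0621 to 0.241). The other 13 had, by their brightest probes, changes of -0.47 to 0.52 and a smallest adjusted p of 0.0969. They include the galactosyltransferases of N-acetyllactosamine B4galt1, B4galt2 and B4galt3, the lactosylceramide synthases B4galt5 and B4galt6, the proteoglycan linker enzymes B3galt6 and B4galt7, and the GM2 synthase B4galnt1. B3galnt2, B3galt4, B3galt5, B4galnt2 and B4galnt3 complete them.

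Fucosyltransferases had 4 kept members of 8. Fut8, the enzyme of core fucose on N-glycans, read 6.45 and 6.21 in untreated cells, 6.13 and 6.06 with ATRA, 6.35 and 6.52 with OMsup, and 7.02 and 7.03 with both. The arrays with both agents were above all others. Fut8 rose by 0.93 when OMsup was added to ATRA (SE 0.168, adjusted p = 0.00435) and by 0.69 against untreated cells (adjusted p = 0.0168). With OMsup alone it differed by 0.10 (adjusted p = 0.805), and the interaction of 0.83 did not pass (adjusted p = 0.424). The change against untreated cells did not pass without the second untreated array (0.57, adjusted p = 0.136) or either ATRA+OMsup array (adjusted p = 0.0562 and 0.0677). A second Fut8 probe also passed when ATRA was added to OMsup (0.84, adjusted p = 0.0149), where the first gave 0.59 and did not pass. Fut4 and Fut7, which make sialyl Lewis x on leukocytes, and Fut10 passed nowhere (-0.32 to 0.18).

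Heparan sulfate is polymerized by Ext1 and Ext2, with Extl3 and Extl2 acting at the start of the chain, and is then sulfated. None of these 4 kept polymerase genes passed (-0.28 to 0.41, smallest adjusted p = 0.305), and Chsy1, a chondroitin synthase, was not kept. The sulfotransferases of heparan sulfate had 7 kept members of 13, of which 5 changed. Hs6st1, a 6-O-sulfotransferase, read 7.79 and 8.39 in untreated cells, 9.02 and 8.74 with ATRA, 6.88 and 6.93 with OMsup, and 8.66 and 8.33 with both. OMsup alone gave the lowest arrays. It fell by 1.19 with OMsup (SE 0.211, adjusted p = 0.00461), and ATRA added to OMsup raised it by 1.59 (adjusted p = 0.00125). ATRA alone gave 0.79 (adjusted p = 0.0728) and the interaction was 0.80 (adjusted p = 0.756). The fall did not pass without the second untreated array (-0.89, adjusted p = 0.0515).

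The 3 kept 3-O-sulfotransferases, which add the rare modification that makes binding sites for antithrombin and some other proteins, were all higher with ATRA. Hs3st3b1 was above background only on the 4 arrays with ATRA, so it was kept only through the groups where it is high. Hs3st3a1 and Hs3st3b1 are close relatives, and whether their probes bind both transcripts was not tested. Hs3st1 read 4.71 and 4.72 in untreated cells, 5.68 and 5.39 with ATRA, 4.35 and 4.34 with OMsup, and 4.27 and 4.27 with both, the last 4 arrays not above background. Hs3st1 was thus kept only through the groups without OMsup. It rose by 0.82 with ATRA (SE 0.149, adjusted p = 0.0102) and was at least 1.92-fold lower when OMsup was added to ATRA (adjusted p = 0.000297). The rise did not pass without either untreated array or the first ATRA array (adjusted p = 0.0742 to 0.108).

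Hs3st3a1 read 4.45 and 4.68, 5.73 and 5.87, 4.96 and 4.50, and 4.92 and 5.01 in untreated, ATRA, OMsup and ATRA+OMsup cells. ATRA alone stood above the other groups. It rose by 1.23 with ATRA (SE 0.184, adjusted p = 0.0033), and fell when OMsup was added to ATRA (-0.83, adjusted p = 0.0139), a call that ended without either ATRA array or the first ATRA+OMsup array (adjusted p = 0.0513 to 0.109). Hs3st3b1 read 4.19 and 4.16 in untreated cells and 4.42 and 4.27 with OMsup, all not above background. With ATRA it read 5.38 and 5.42, and with both 5.04 and 5.03, all above background. Against untreated cells the level with ATRA was at least 1.74-fold higher (adjusted p = 0.000621). It was at least 1.35-fold higher with both than in untreated cells (adjusted p = 0.00162), and at least 1.34-fold higher with both than with OMsup (adjusted p = 0.0165). The last did not pass when any of its 4 arrays was left out (adjusted p = 0.0578 to 0.129) or without the filter on detection (adjusted p = 0.0746).

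Hs2st1, the 2-O-sulfotransferase of heparan sulfate, rose by 0.75 with OMsup (SE 0.158, adjusted p = 0.0116). That call ended without either untreated array or the second OMsup array (adjusted p = 0.062 to 0.091) and with a common median (0.61, adjusted p = 0.0652). A second Hs2st1 probe gave 0.73 with OMsup and did not pass (adjusted p = 0.0542). Ndst2, which removes acetyl groups and adds N-sulfate, and Hs6st3 passed nowhere (-0.09 to 0.46), with a smallest adjusted p of 0.0503. Hs3st2, Hs3st5, Hs3st6, Hs6st2, Ndst3 and Ndst4 were not kept.

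Of the carbohydrate sulfotransferases named Chst, 7 of 14 were kept and 5 changed. Chst15 read 4.96 and 4.64 in untreated cells, 7.79 and 7.31 with ATRA, 4.77 and 4.79 with OMsup, and 7.06 and 7.10 with both. All 4 arrays with ATRA were far above all 4 without. Its rise was 2.75 with ATRA (SE 0.199, adjusted p = 4.14e-05), 2.30 when ATRA was added to OMsup (adjusted p = 6.96e-05) and 2.28 with both (adjusted p = 2.34e-05). A second probe gave 2.04, 1.54 and 1.45 for ATRA against untreated cells, for ATRA added to OMsup and for both agents against untreated cells, and passed in each. OMsup alone differed by -0.02 (95% interval -0.46 to 0.42), and the interaction was -0.45 (95% interval -1.07 to 0.17).

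Chst7 and Chst3 both add 6-O-sulfate to chondroitin. Chst7 read 6.48 and 5.95 in untreated cells, 7.38 and 7.50 with ATRA, 4.55 and 4.61 with OMsup, and 4.56 and 5.53 with both. The OMsup arrays and the first array with both agents were not above background, and the ATRA arrays were the highest. Chst7 rose by 1.22 with ATRA (SE 0.287, adjusted p = 0.0396). It was at least 3.04-fold lower with OMsup (adjusted p = 0.00421), and it fell with both (-1.17, adjusted p = 0.0178) and when OMsup was added to ATRA (-2.39, adjusted p = 0.000337). The rise with ATRA did not pass without any 1 of its 4 arrays (0.95 to 1.49, adjusted p = 0.0699 to 0.307), and the fall with both was lost without untreated array 1 (-0.91, adjusted p = 0.136) or ATRA+OMsup array 1 (-0.69, adjusted p = 0.0997).

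Chst3 read 6.10 and 5.98 in untreated cells, 5.38 and 5.26 with ATRA, 5.10 and 4.61 with OMsup, and 4.85 and 4.42 with both. Every treated array was below the untreated ones. It fell with OMsup (-1.18, SE 0.206, adjusted p = 0.00405) and with both (-1.40, adjusted p = 0.000838), and differed by -0.72 with ATRA (adjusted p = 0.097). Chst1, a sulfotransferase of keratan sulfate, read 4.76 and 4.53, 4.47 and 4.56, 5.24 and 5.59, and 5.21 and 5.39 in untreated, ATRA, OMsup and ATRA+OMsup cells. The arrays with OMsup were above the others.

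Chst1 rose by 0.77 with OMsup (SE 0.172, adjusted p = 0.0167) and by 0.66 with both (adjusted p = 0.0258), and was at least 1.6-fold higher with both than with ATRA (adjusted p = 0.013). Each of these 3 calls ended on leaving out the second array of the OMsup or ATRA+OMsup group (adjusted p = 0.141, 0.138 and 0.0836). Those against untreated cells also ended without the second untreated array (adjusted p = 0.145 and 0.184), that with both also without untreated array 1 (adjusted p = 0.0512) or the filter on detection (adjusted p = 0.0713), and the last without either ATRA array (adjusted p = 0.0975 and 0.0683). Chst14, the dermatan 4-O-sulfotransferase, rose by 0.56 with OMsup (SE 0.153, adjusted p = 0.0444), and that call ended without any 1 of its 4 arrays (adjusted p = 0.157 to 0.175), without either ATRA array (adjusted p = 0.0765 each), without the detection filter (adjusted p = 0.129) and with a common median (0.45, adjusted p = 0.164). Chst11 and Chst12, the chondroitin 4-O-sulfotransferases, passed nowhere (-0.42 to 0.43).

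**Figure D3:**
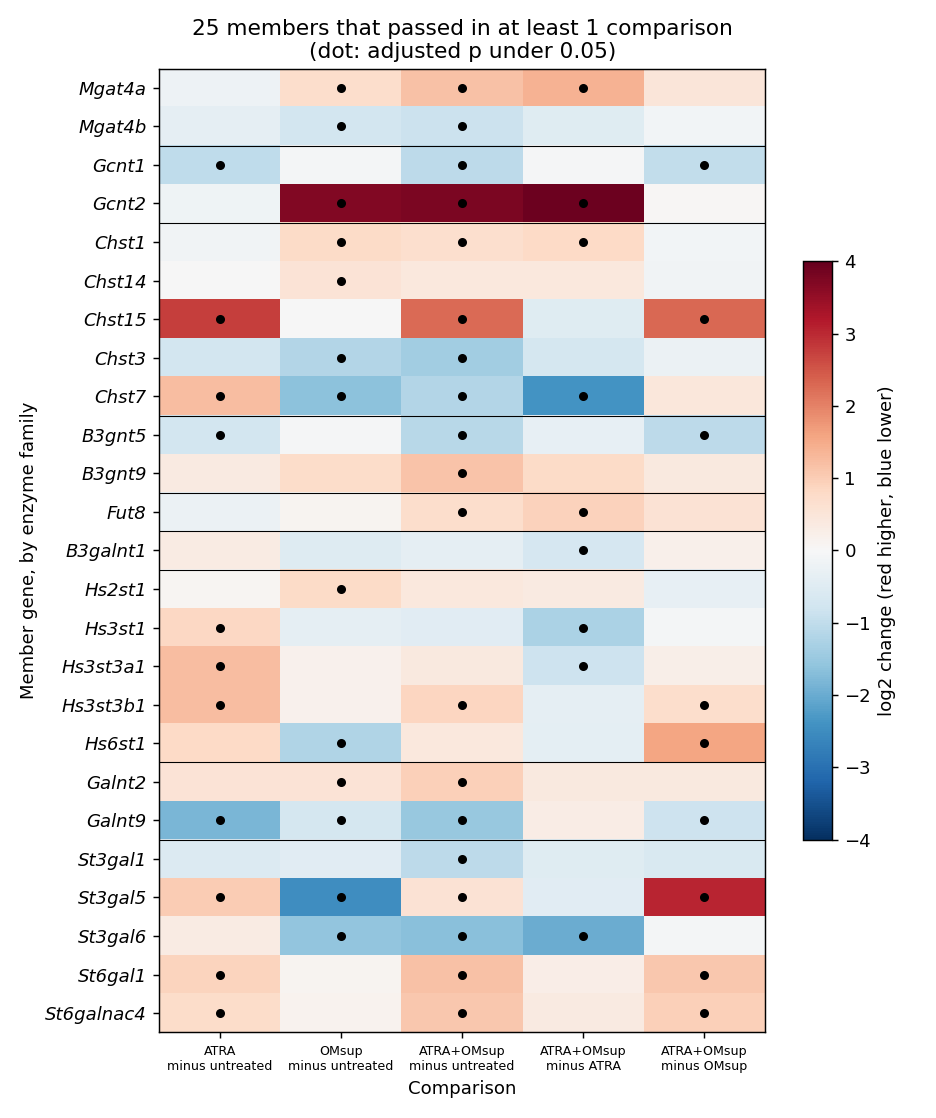
Log2 change (colour, red higher and blue lower) of the 25 members that passed somewhere (rows, by enzyme family) in 5 comparisons (columns), with a dot where the adjusted p was under 0.05. Gcnt2 has the strongest red in the 3 columns where OMsup was added (3.71 to 3.93), and St3gal5 goes from blue with OMsup (-2.47) to red when ATRA is added to it (3.04).

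ATRA was added in 2 comparisons that share no array, against untreated cells and against OMsup. Of the members, 11 and 9 passed, and 8 passed in both with the same direction, 72.7% of the first list and 88.9% of the second. They were Chst15, Hs3st3b1, St3gal5, St6gal1 and St6galnac4, all higher, and B3gnt5, Galnt9 and Gcnt1, all lower. Hs3st3b1 was kept only through the groups with ATRA, so its place in both lists partly follows from the detection filter. Over all features 298 were shared, 57.3% and 51.8% of the lists. The 67 members' changes correlated at r = 0.74 across genes, beside 0.64 over all features. Genes are not independent replicates. Hs3st1, Hs3st3a1 and Chst7 passed with ATRA alone but had changes of -0.08, 0.24 and 0.46 when ATRA was added to OMsup. Their interactions did not pass (smallest adjusted p = 0.217), so a difference between the 2 settings was not shown for them.

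OMsup was likewise added to untreated cells and to ATRA without shared arrays. Of 13 and 9 members that passed, 5 passed in both with the same direction, 38.5% and 55.6% of the lists, beside 66.9% and 60.2% over all features. Chst1, Gcnt2 and Mgat4a were higher, and Chst7 and St3gal6 lower. St3gal6 was kept only through the groups without OMsup, so its place in both lists partly follows from the detection filter. Across genes the changes correlated at r = 0.82, beside 0.79 over all features. St3gal5 fell with OMsup alone by 2.47 and differed by -0.44 when OMsup was added to ATRA (adjusted p = 0.125), the same interaction as above.

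**Figure D4:**
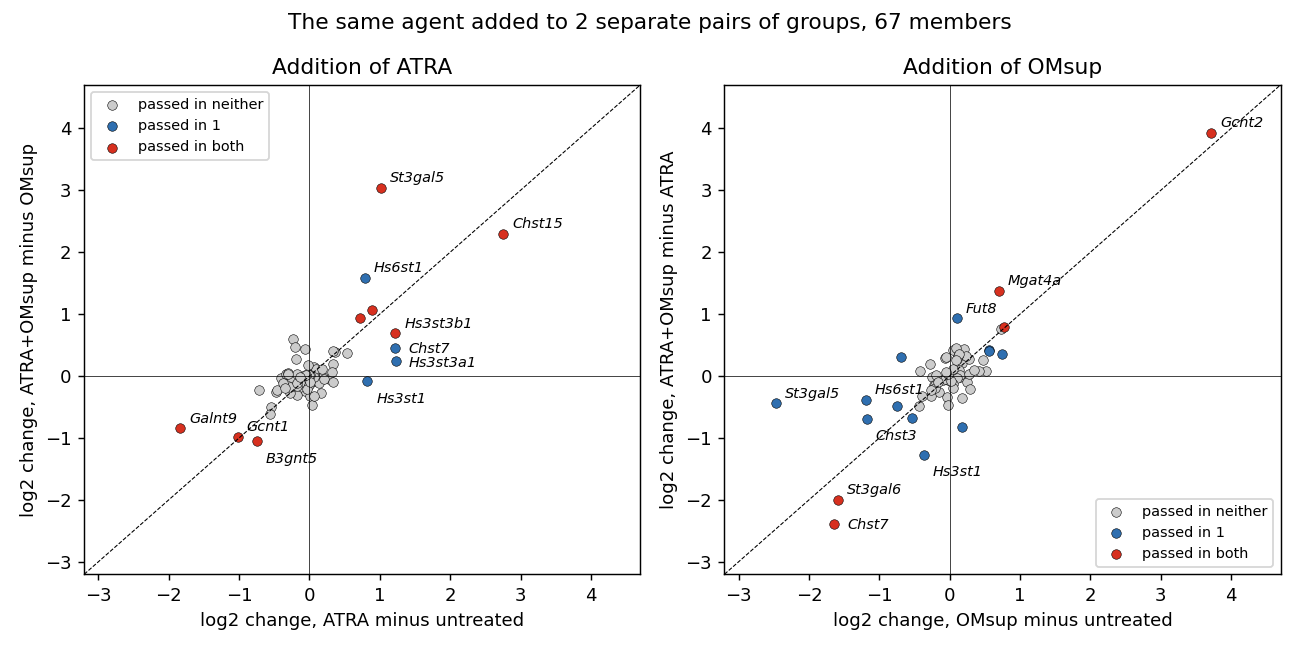
Log2 change of the 67 members on adding the same agent in 2 separate pairs of groups, ATRA in the left panel (against untreated cells on the horizontal axis, against OMsup on the vertical) and OMsup in the right (against untreated cells and against ATRA). Red points passed in both pairs, blue in 1 and grey in neither, and the dashed line marks equal change. St3gal5 lies farthest above the line on the left (1.01 and 3.04), while Gcnt2 lies near it on the right (3.71 and 3.93).

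Genes that work beside these enzymes were counted in 6 lists, of which 82 genes were tested. Of 20 genes that supply sugar nucleotides and sulfate donors, 0, 1 and 2 rose with ATRA, OMsup and both, and none fell. These shares of 0%, 5% and 10% lie below the 4.06%, 9.36% and 15.1% of all features. Papss2, which makes the sulfate donor PAPS, rose by 1.01 with OMsup (adjusted p = 0.00502) and by 1.63 with both (adjusted p = 0.000122), and Gfpt1, the entry enzyme of the hexosamine pathway, rose by 0.70 with both. Of 9 other genes of glycosaminoglycan assembly 1 changed (11.1% with OMsup and with both, beside 9.36% and 15.1%), Sulf2, a secreted sulfatase that removes 6-O-sulfate from heparan sulfate. It fell with OMsup (-0.81, adjusted p = 0.00431) and when OMsup was added to ATRA (-1.16, adjusted p = 0.000404).

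Of 13 other Golgi glycan enzymes, 1, 3 and 6 rose with ATRA, OMsup and both, and none fell, which is 7.69%, 23.1% and 46.2% beside 4.06%, 9.36% and 15.1% of all features. The list's median change was 0.33, 0.25 and 0.45, beside 0.01, -0.00 and -0.01 over all features. Mfng, which extends fucose on Notch receptors, rose by 1.24 with ATRA (adjusted p = 0.0044). The mannosidase Man2a2, which trims N-glycans before branching, rose by 1.06 with both agents (adjusted p = 0.000144), Man1a by 1.33 (adjusted p = 0.0232) and Man2a1 by 0.77.

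Among 11 proteoglycan core genes, the carriers of the chains above, 0, 2 and 2 rose and 1, 1 and 1 fell with ATRA, OMsup and both, in all 9.09%, 27.3% and 27.3% beside 4.06%, 9.36% and 15.1% of all features. Gpc1, glypican 1, rose by 2.53 with both agents (adjusted p = 5.29e-06) and by 1.13 with OMsup (adjusted p = 0.00245). Sdc3, syndecan 3, fell by 0.95 with OMsup (adjusted p = 0.000511), and ATRA added to OMsup raised it by 1.01 (adjusted p = 0.000662). Vcan, the chondroitin sulfate carrier versican, rose from background with OMsup, by at least 1.97-fold (adjusted p = 0.0015), and Srgn, serglycin of secretory granules, rose by 0.92 with both.

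Of 19 genes of glycan removal, 0 rose with ATRA, 1 with OMsup and 4 with both, and 0, 1 and 2 fell, in all 0%, 10.5% and 31.6% beside 4.06%, 9.36% and 15.1%. The largest with both agents were the heparan-degrading Sgsh (0.94) and Hgsnat (0.81), the galactosidase Glb1 (0.78) and the sulfatase Arsb, which fell by 0.73. Of 10 glycan-binding lectins, 0, 1 and 1 rose and 0, 2 and 2 fell, in all 0%, 30% and 30% beside the same shares. Siglec1, the sialic acid receptor CD169, fell by 1.27 with OMsup (adjusted p = 0.0039), and ATRA added to OMsup raised it by 1.27 (adjusted p = 0.00652). Mgl2, a GalNAc-binding lectin, fell by 0.89 with OMsup, and Lgals1, galectin 1, fell by 0.73 with both. None of the 82 genes passed in the interaction.

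Of the 67 members, 47 were above background on all 8 arrays and 20 on 2 to 7, and 16 and 9 of these passed somewhere. The other 54 genes were above background on no array (46) or on 1 (8). The sizes given are after background correction. Without it, 37 of the 62 changes that passed were smaller by more than 1.5 times, such as 1.33 for Chst15 with ATRA and 2.08 for Gcnt2 with OMsup, and all 62 still passed in the same direction.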

How the data were processed

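Total RNA of the 8 samples was labelled and hybridized to a 1-colour Illumina bead array, per the labels' protocols. The authors deposited a non-normalized table that holds, for each probe on each array, a linear intensity (array medians 92.59 to 98.21) and a detection p-value. A deposited table of normalized intensity, with medians of 95.07 to 95.08, served as an alternative, and each of its columns matched its own array best. The software used for either table is not given in these sources.

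Symbols came from the array's probe table (34885 probes with 1 symbol, 18 with several, which are not named, and 10378 with none), and 1348 empty lines were left out. With limma 3.58.1 in R 4.3.3, the authors' intensity was background-corrected and quantile-normalized by neqc (negative controls inferred from the deposited detection p-values, offset 16) and put on the log2 scale, which compresses changes of dim probes. A gene was represented by its brightest kept probe, which left 12793 features. All 8 arrays were fitted as 4 group means (lmFit, eBayes with trend), and p-values were adjusted over all features by Benjamini and Hochberg's method. On simulated data for all 18503 kept probes, log2 changes of 1 were recovered in 92% of cases and of 2 in 100%. The simulation drew normal noise from the fitted spread and added changes after normalization. It leaves out the compression of dim probes, so these shares are not the power of the tests above. The number of arrays limits the precision.

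The members and lists were chosen with earlier results of these data known. Members that passed with arrays that do not overlap are named, with values per array for up to 4 of each family, and up to 4 called genes of each list. Alternatives covered background, scaling, filters, probe choice, trend, a replicate block and leaving out each array. No protein sequences or probe positions were used.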

Additional observations from a re-analysis of the deposited data

Results flagged for a closer look

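St3gal5 was the member for which the effect of ATRA differed between cells without and with OMsup. Its log2 change with ATRA was 1.01 without OMsup and 3.04 with it, and the difference of 2.03 passed limma's interaction test (SE 0.225, adjusted p = 0.00306). It passed under every alternative run with this probe, each array left out included, and with a second probe (1.79, adjusted p = 0.0246). The groups of 2 arrays were too small to test for a single outlying array.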

How the results depend on the processing

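Of the 62 changes that passed, 35 passed under every alternative and 49 under every one that kept all arrays. Over 967 values, 866 kept their side of the threshold, 101 did not pass (83 with an array left out, 18 otherwise) and 0 turned direction. With genes above background on all 8 arrays alone, which leaves 47 members, 6, 8 and 3 passed for ATRA, OMsup and OMsup added to ATRA, because fewer members were tested. Leaving out 1 array, which leaves a lone array assumed to vary like the other groups, gave counts of 6 to 11 with ATRA, 5 to 13 with OMsup, 13 to 19 with both, 6 to 11 for OMsup added to ATRA, 7 to 9 for ATRA added to OMsup and 1 to 1 for the interaction. The lowest count with ATRA (6) came without the first untreated or the first ATRA array, and that with OMsup (5) without the second untreated array. It was 7 without the first untreated or the second OMsup array. Shares over all features are not given here for the filter on all 8 arrays or for the arrays left out. Scaling to a common median put the median change of all features at -0.132 for OMsup added to ATRA, against -0.012 before, and turned no direction of the 62. The labels do not say that replicate numbers pair samples. The deviations of same-numbered arrays correlated at -0.00985 to 0.532. With a replicate block, 15, 16, 23, 12, 12 and 1 members passed in the 6 comparisons, against 11, 13, 19, 9, 9 and 1, and none of the 62 calls ended. Over all 12793 features the counts rose as well, from 520 to 924 with ATRA and from 1197 to 1772 with OMsup. They rose from 1331 to 1884 for OMsup added to ATRA and from 575 to 899 for ATRA added to OMsup. Counts over all features with the block are not given here for both agents against untreated cells or for the interaction. The member counts of those comparisons with the block therefore cannot be set against a general share. Signal over background limits the 20 members that were not above background on every array.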
